A study of Mus musculus with 15 samples.

Results

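The genes described here mark the neuroblast and Dlx lineage, the path from dividing progenitor to young inhibitory neuron. They are Dcx, Cd24a, Tubb3, Dlx1, Dlx2, Dlx5, Dlx6, Gad1, Stmn2 and Igfbpl1. They are 10 of the 18193 genes that could be named on the array, chosen by gene symbol, and each was read from its brightest probe set by mean signal on the 15 arrays. Affymetrix arrays measured RNA of Gli1+ GFAP+ astroglia sorted from 3 brain regions with 5 arrays for each, namely the SVZ (the subventricular zone beside the lateral ventricle), hippocampus and cerebellum. The study asked which genes differ between the astroglia of SVZ or hippocampus, where neurons are made in the adult, and those of the cerebellum, with which both were compared. All groups came from male mice of 6 to 8 weeks with the genotype Gli1-CreER;GFAP-GFP;R26tdTomato. All mice received tamoxifen in 2 doses of 10 mg, and cells were sorted 3 weeks later, with the cells of 10 to 12 mice pooled for each array.

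Gli1 is a target of Sonic hedgehog signalling, and the tamoxifen-activated Cre driven by it labels Gli1+ cells and their descendants permanently with tdTomato. The GFP reporter is driven by the promoter of the astroglial gene GFAP, and the sort took cells positive for both markers. The labels do not say whether the pools shared litters or sorting days, so p values measure the spread between these pooled arrays. Astroglial genes were present as labelled, since 14 to 16 of 16 astroglial genes lay above a log2 signal of 3 on every array.

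In the adult SVZ, GFAP+ stem cells give rise to transit amplifying cells, which divide and become neuroblasts that migrate to the olfactory bulb and mature into interneurons. Dlx genes encode homeodomain transcription factors of this lineage and of embryonic forebrain interneurons. Dlx1 lies beside Dlx2, and Dlx5 beside Dlx6. Stem cells of the dentate gyrus in the hippocampus instead produce excitatory granule neurons, which also pass through a stage that uses Dcx. Cerebellar astroglia, including Bergmann glia, are not known as a source of neurons in the undisturbed adult.

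Most of the 10 genes lay at the background of the array in all 3 regions. Of the 10, Cd24a, Tubb3 and Gad1 exceeded a log2 signal of 3 on any array, and the other 7 did not. Among all 18193 genes, 9129 (50.2%) never exceeded that level. Of 150 values, one for each gene on each array, 7 were above 3, and 5 of these belonged to Cd24a. A second guide to background came from 44 probe sets for olfactory receptors, genes of the nasal epithelium, whose choice as a guide was made after the values were seen. Their highest signal on an array was 1.51 to 2.63 in SVZ, 1.43 to 2.10 in hippocampus and 1.29 to 1.46 in cerebellum. Of 50 member values per region, 9 in SVZ, 10 in hippocampus and 11 in cerebellum exceeded the highest olfactory receptor signal of their own array. Among Dcx, Stmn2, Igfbpl1 and the 4 Dlx genes, 11 of 105 values did. Cd24a gave 5, 2 and 5 of the regional counts, in cerebellum with values as close as 1.31 against 1.29 on array 2. This guide lay lower in cerebellum, so these counts do not compare detection between regions. The share of all genes above it was not counted.

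**Figure D1:**
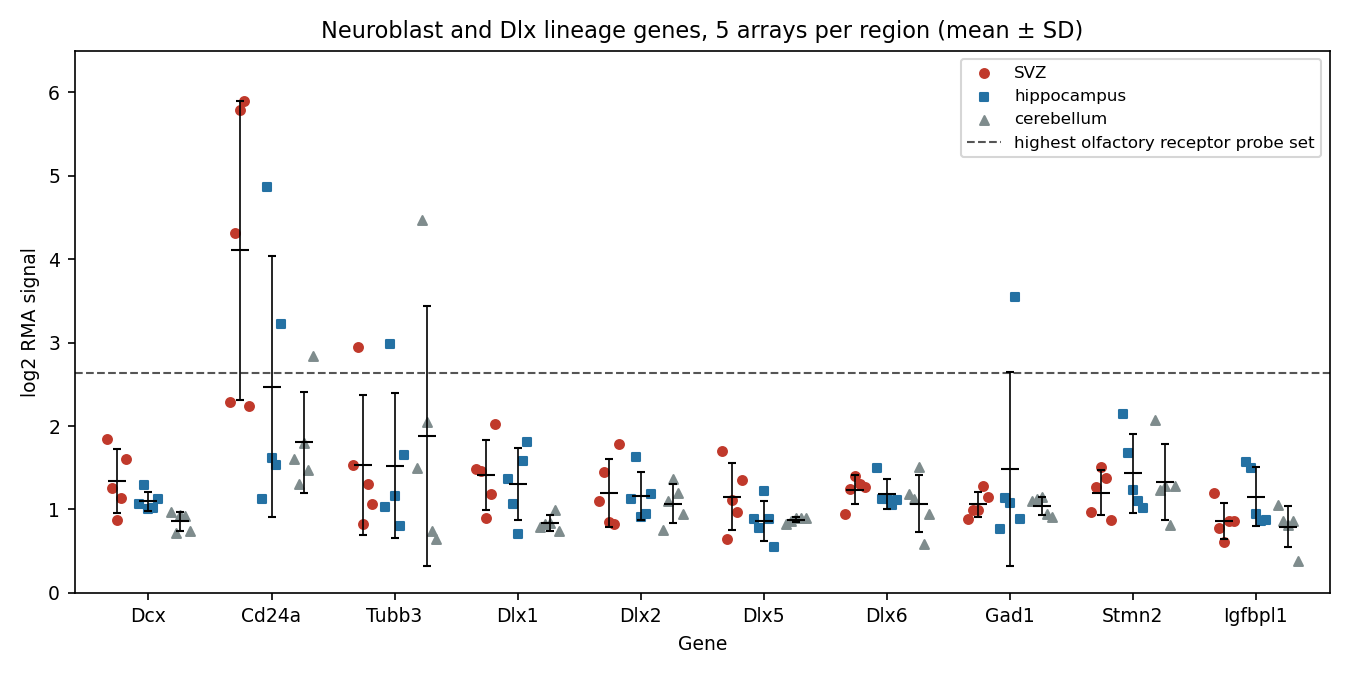
The log2 RMA signal (vertical axis) of each of the 10 genes (horizontal axis) is shown with 1 point per array, 5 arrays for each of SVZ, hippocampus and cerebellum, and bars for mean ± SD. The dashed line is the highest olfactory receptor probe set on any array, at 2.63, and points above it belong to Cd24a, Tubb3 and Gad1.

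None of the 10 genes passed the test between any pair of regions. In SVZ against cerebellum limma called 0 of 10 at a Benjamini-Hochberg adjusted p under 0.05, where 5.51% of the 18193 were called, with 188 above and 814 below cerebellum. In hippocampus against cerebellum 0 of 10 were called, where 4.78% of the 18193 were, with 147 above and 722 below. In SVZ against hippocampus 0 of 10 were called, and 0.022% of all genes. By the criterion that the series set, which asks for over 4-fold together with p under 0.01 before adjustment, the count was also 0 of 10 in each comparison, against 3.21%, 2.87% and 0.357% of all genes. At an unadjusted p under 0.05 the members numbered 3 in SVZ against cerebellum, namely Cd24a, Dcx and Dlx1, where 21.1% of all genes reached that level. The count was 0 in hippocampus against cerebellum and 0 in SVZ against hippocampus, where 20.1% and 7.02% of all genes did. The median log2 difference of the 10 genes was 0.15 in SVZ against cerebellum and 0.18 in hippocampus against cerebellum, beside 0.07 for all genes in each. Both comparisons use the same 5 cerebellar arrays.

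Background signal lay slightly lower in cerebellum than in SVZ and hippocampus. The 44 olfactory receptor probe sets had a median log2 difference of 0.17 in SVZ against cerebellum and 0.21 in hippocampus against cerebellum. Single receptor probe sets ranged from -0.1 to 0.68 in the first and from -0.02 to 0.46 in the second. In SVZ against cerebellum Dcx (0.49) and Dlx1 (0.57) lay inside that range, and Cd24a (2.30) lay above it. Array medians were 1.20 to 1.31 in SVZ, 1.20 to 1.27 in hippocampus and 1.12 to 1.17 in cerebellum. In a gene at background, differences within the receptor ranges are therefore no larger than those of single receptor probe sets. No fold is given for genes at background. Arrays were also less alike within SVZ and hippocampus, with Pearson r of 0.59 to 0.79 and 0.64 to 0.78 over 4816 genes, than within cerebellum, with 0.87 to 0.94. The share of all probe sets above 3 was 15.1 to 19.5% in SVZ, 15.2 to 19.8% in hippocampus and 20.1 to 22.4% in cerebellum. The mean of 12 spiked control probe sets was 11.04 to 13.10, 11.51 to 12.85 and 8.49 to 12.34 in the same order. Whether dim genes were equally visible in the 3 regions was not tested.

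**Figure D2:**
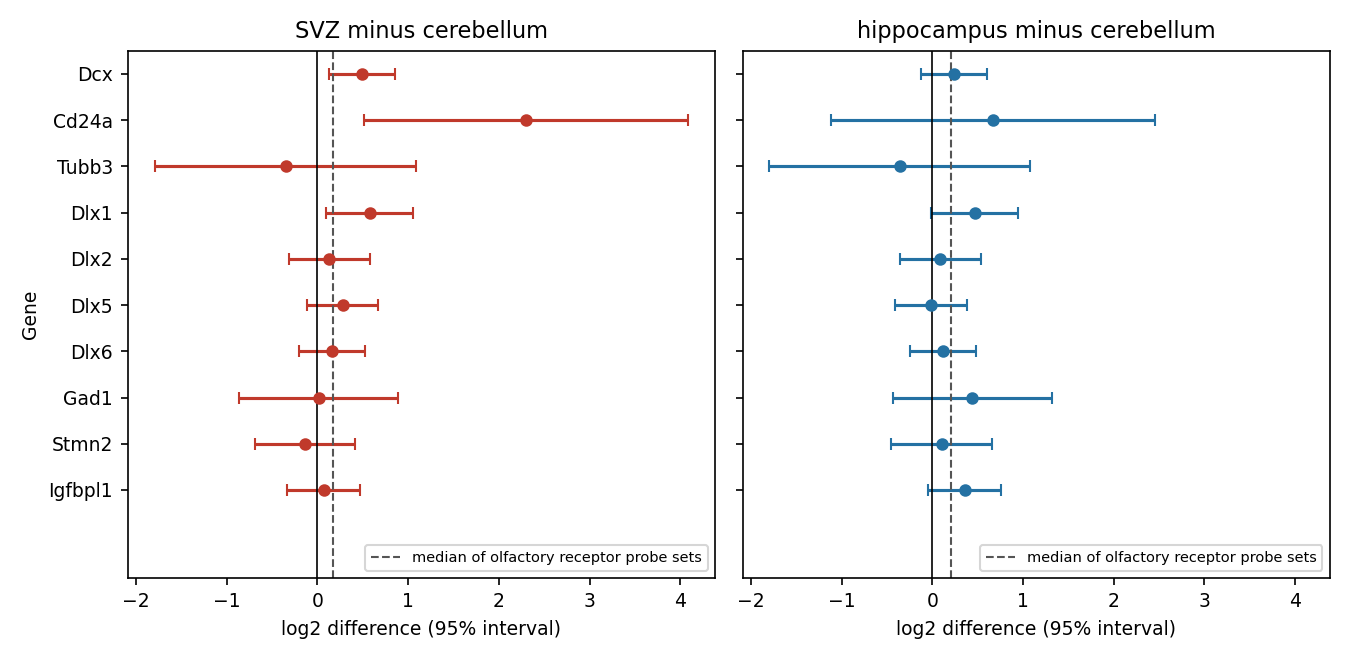
The log2 difference of each gene (horizontal axis, point) with its 95% interval (bar) is plotted for SVZ minus cerebellum on the left and hippocampus minus cerebellum on the right. The dashed lines mark the median difference of the olfactory receptor probe sets, 0.17 and 0.21, which every interval includes except that of Cd24a in SVZ. Single receptor probe sets, not drawn, ranged from -0.1 to 0.68 and from -0.02 to 0.46.

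Cd24a, which encodes a small anchored surface glycoprotein used to sort neuroblasts and also present on ependymal cells, was the member with the highest signal. It stood at 2.29, 4.31, 5.79, 5.90 and 2.24 on SVZ arrays 1 to 5, at 1.13, 4.87, 1.62, 1.53 and 3.22 on hippocampal arrays, and at 1.60, 1.31, 1.80, 1.47 and 2.84 on cerebellar arrays. SVZ arrays 2, 3 and 4 and hippocampal arrays 2 and 5 were above every cerebellar array, while SVZ arrays 1 and 5 lay within the cerebellar range. The region means were 4.11 ± 1.79 in SVZ, 2.47 ± 1.56 in hippocampus and 1.80 ± 0.61 in cerebellum (SD over 5 arrays each, log2 signal). The difference of SVZ from cerebellum was 2.30 ± 0.83 (SE), with a 95% interval of 0.51 to 4.09, and it missed the threshold in limma (adjusted p = 0.131). With arrays weighted by their quality it passed, at 2.50 (adjusted p = 0.0387). Hippocampus differed from cerebellum by 0.67 (95% interval -1.12 to 2.46, adjusted p = 0.657). SVZ differed from hippocampus by 1.63 (95% interval -0.16 to 3.42, adjusted p = 0.714). Cerebellar arrays 1, 2 and 4 and hippocampal arrays 1, 3 and 4 of Cd24a lay at or close to background, so its differences depend on where background lies. Neither neighbouring pair in the order SVZ, hippocampus, cerebellum was separated by the test.

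The other 2 probe sets of Cd24a gave the same order of means but did not track the first on each SVZ array. One of them read 0.97, 2.13, 5.10, 5.65 and 4.91 on SVZ arrays 1 to 5, and the other read 3.10, 3.66, 1.07, 3.88 and 3.40. The 3 probe sets spanned 4.72 log2 units on SVZ array 3 and 2.02 to 2.67 on the other SVZ arrays, but 0.11 to 1.06 on hippocampal and cerebellar arrays. All 3 were above 3 on SVZ array 4 and hippocampal array 2. Fitted with every probe set as a feature, a setting added after seeing the data, their SVZ minus cerebellum differences were 2.30, 2.17 and 1.51, with limma adjusted p = 0.140, 0.198 and 0.240.

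**Figure D3:**
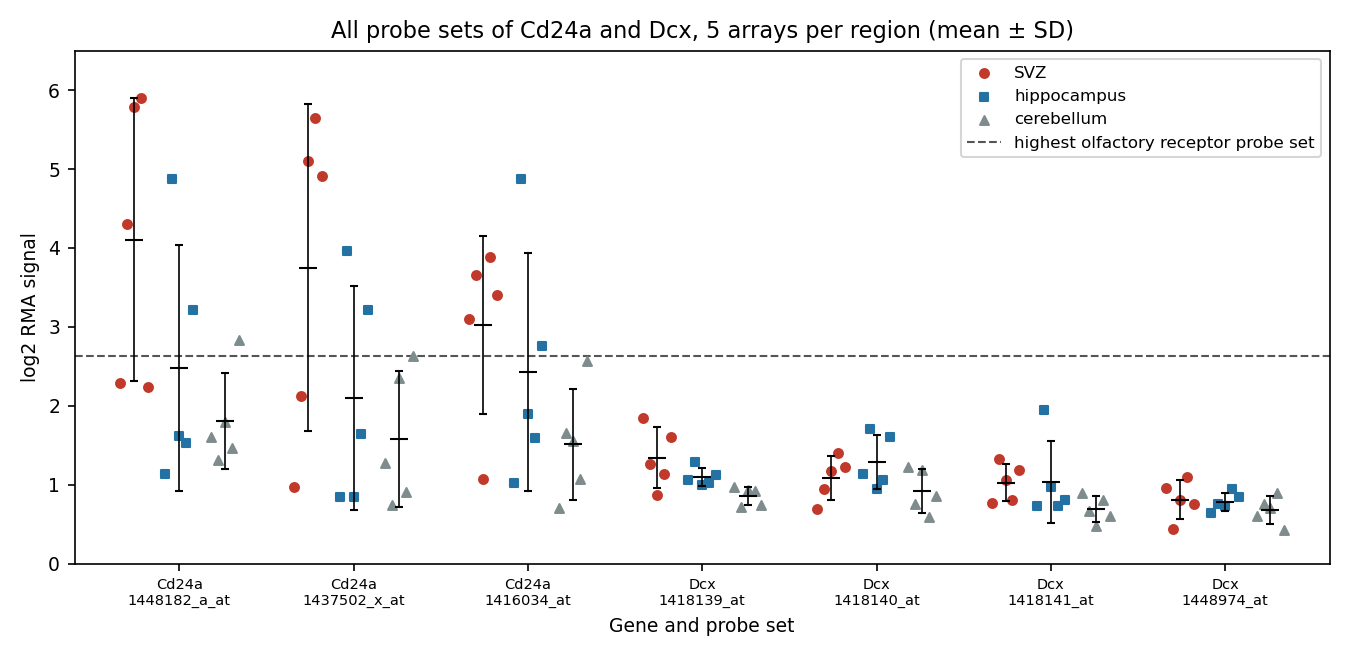
The log2 RMA signal (vertical axis) of the 3 probe sets of Cd24a and the 4 of Dcx (horizontal axis) is drawn with 1 point per array and mean ± SD for 5 arrays per region. Cd24a reaches 5.90 on SVZ arrays, and no probe set of Dcx exceeds 1.95.

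Genes listed as markers of other cell types also gave signal, beside that of Cd24a. The summed linear signal of 18 ependymal genes was 229 to 677 in SVZ, 170 to 1080 in hippocampus and 1083 to 1564 in cerebellum, and 0 of 18 passed the test in either comparison with cerebellum. Of these genes 2 to 3 were above 3 on each SVZ array, while 11 were on hippocampal array 2 and 10 on cerebellar array 5, the arrays with the highest Cd24a of their regions. Hippocampal arrays 1, 3, 4 and 5 had 2, 3, 5 and 6 such genes. Cerebellar arrays 1 to 4 had 2, 2, 4 and 2. The sums of 1140, 1158 and 1484 on cerebellar arrays 1, 2 and 4 thus came mostly from 2 genes. Foxj1, the transcription factor gene of ciliated cells, chosen after its values were seen, was 0.93 to 2.48 in SVZ, 0.64 to 4.09 in hippocampus with the highest on array 2, and 1.28 to 3.11 in cerebellum. The summed signal of 14 microglial genes was 532 to 5270 in SVZ, 235 to 2211 in hippocampus and 37.6 to 211 in cerebellum, with 5 of 14 higher in SVZ and 2 of 14 higher in hippocampus than in cerebellum. The part of these cells in the Cd24a result was not tested. In such pooled RNA, fewer cells of a type and less RNA per cell cannot be told apart.

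Dcx encodes doublecortin, the microtubule-binding protein of migrating neuroblasts and the marker most used for them. Its signal was 1.84, 1.26, 0.87, 1.14 and 1.61 in SVZ, 1.06, 1.29, 1.00, 1.02 and 1.12 in hippocampus, and 0.97, 0.72, 0.93, 0.92 and 0.74 in cerebellum. No Dcx value exceeded 1.95 on any of its 4 probe sets, and SVZ arrays overlapped those of both other regions. SVZ differed from cerebellum by 0.49 ± 0.17 (95% interval 0.13 to 0.85, adjusted p = 0.115), and without SVZ array 3 by 0.61, which passed (adjusted p = 0.0427). Fitted one by one, the other 3 probe sets of Dcx differed by 0.16, 0.34 and 0.14 in the same comparison, with adjusted p of 0.669, 0.419 and 0.613. Hippocampus differed from cerebellum by 0.24 (95% interval -0.12 to 0.60, adjusted p = 0.424). The hippocampal arrays of Dcx were all above the cerebellar arrays, the 1 member of 10 without overlap in that comparison, where 7.98% of all genes were without overlap. On the other 3 probe sets of Dcx the arrays of these regions overlapped. The olfactory receptor probe sets had a median difference of 0.21 in the same comparison, with single ones from -0.02 to 0.46. In SVZ against cerebellum the arrays of 0 of 10 members were without overlap, against 8.62% of all genes, and in SVZ against hippocampus 0 of 10, against 0.813%.

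The 4 Dlx genes ranged from 0.55 to 2.03 over all arrays and regions. Dlx1, which with Dlx2 starts the inhibitory neuron programme in the embryonic forebrain, was 1.48, 1.46, 0.90, 1.19 and 2.03 in SVZ, 1.36, 1.07, 0.70, 1.58 and 1.81 in hippocampus, and 0.79, 0.83, 0.84, 0.99 and 0.74 in cerebellum. In all, 4 SVZ arrays and 4 hippocampal arrays lay above the whole cerebellar range, and array 3 of each did not. The Dlx1 difference was 0.57 ± 0.23 in SVZ against cerebellum (95% interval 0.09 to 1.06, adjusted p = 0.165) and 0.47 ± 0.23 in hippocampus against cerebellum (95% interval -0.02 to 0.95, adjusted p = 0.265). Its values in SVZ and hippocampus differed by 0.11 (95% interval -0.38 to 0.59, adjusted p = 0.924). Array 5 of SVZ, at 2.03, and array 5 of hippocampus, at 1.81, were above the highest olfactory receptor probe set of the same array.

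Dlx2 was 1.10, 1.45, 0.85, 0.83 and 1.78 in SVZ, 1.13, 1.63, 0.91, 0.94 and 1.19 in hippocampus, and 0.75, 1.10, 1.36, 1.20 and 0.94 in cerebellum. The 3 regions overlapped, with a difference of 0.13 in SVZ against cerebellum (95% interval -0.32 to 0.58, adjusted p = 0.733). Dlx5 and Dlx6, which act after Dlx1 and Dlx2 in forebrain interneurons, were 0.64 to 1.70 and 0.94 to 1.40 in SVZ, 0.55 to 1.22 and 1.05 to 1.50 in hippocampus, and 0.83 to 0.90 and 0.59 to 1.51 in cerebellum. Their SVZ minus cerebellum differences were 0.28 (95% interval -0.12 to 0.67) and 0.16 (95% interval -0.20 to 0.53), with adjusted p of 0.406 and 0.595. None of these intervals reached a log2 difference of 1, apart from that of Dlx1. At the background, however, a signal bounds the RNA only loosely, and whether low Dlx levels could be detected on these arrays was not tested.

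Gad1 encodes the enzyme that makes GABA from glutamate, the transmitter of the interneurons that SVZ neuroblasts become. Its signal was 0.89, 0.99, 0.99, 1.28 and 1.15 in SVZ, 0.77, 1.14, 1.08, 3.55 and 0.89 in hippocampus, and 1.10, 1.12, 1.15, 0.95 and 0.91 in cerebellum. Hippocampal array 4 was the one array above a signal of 3, and the second probe set of Gad1 read 1.01 on that array. The difference was 0.01 in SVZ against cerebellum (95% interval -0.86 to 0.89, adjusted p = 0.988) and 0.44 in hippocampus against cerebellum (95% interval -0.44 to 1.32, adjusted p = 0.549). With every probe set fitted as a feature, the second probe set of Gad1 differed by -0.42 and -0.45 in these comparisons (limma adjusted p = 0.236 and 0.210). Gad2, the second GABA synthesis gene, named after its values were seen, was 0.67 to 1.10 in SVZ, 0.56 to 1.02 in hippocampus and 0.78 to 1.88 in cerebellum.

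Tubb3, a neuronal beta tubulin, was 1.53, 2.95, 0.82, 1.30 and 1.06 in SVZ, 1.03, 2.98, 1.16, 0.80 and 1.65 in hippocampus, and 1.50, 4.47, 2.05, 0.74 and 0.65 in cerebellum. Array 2 was the highest of each region, and the highest of all was the cerebellar one. Tubb3 differed by -0.35 in SVZ against cerebellum (95% interval -1.79 to 1.09, adjusted p = 0.784) and by -0.36 in hippocampus against cerebellum (95% interval -1.80 to 1.08, adjusted p = 0.775). Without cerebellar array 2 the SVZ minus cerebellum difference was 0.30, of the opposite sign.

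Stmn2 encodes a microtubule-destabilising protein of growing axons, and ranged over 0.87 to 1.51 in SVZ, 1.02 to 2.15 in hippocampus and 0.81 to 2.07 in cerebellum. Its SVZ minus cerebellum difference was -0.13 (95% interval -0.69 to 0.42, adjusted p = 0.784). Igfbpl1, a gene of the insulin-like growth factor binding protein family found in neuroblasts, ranged over 0.61 to 1.20 in SVZ, 0.86 to 1.57 in hippocampus and 0.38 to 1.05 in cerebellum. Its hippocampus minus cerebellum difference was 0.36 (95% interval -0.04 to 0.76, adjusted p = 0.297). With every probe set fitted as a feature, the second probe set of Igfbpl1 differed by -0.03 in that comparison (limma adjusted p = 0.924). A list of mature neuron genes, which includes Stmn2 itself, is set beside Tubb3 and Stmn2, since mature neurons also use them. Its 18 genes summed to 94.4 to 254 in SVZ, 108 to 182 in hippocampus and 164 to 481 in cerebellum. Cerebellar arrays 1 and 2 had the highest sums, 481 and 344. Cerebellar arrays 3 to 5, at 181, 173 and 164, lay within the SVZ range. Against cerebellum, 1 of the 18 rose and 1 fell in SVZ, beside 5.51% of all genes called. In hippocampus 0 rose and 0 fell, beside 4.78%. Snap25, a synaptic vesicle fusion gene chosen after its values were seen, was 1.09 to 5.52 in SVZ, 1.59 to 5.34 in hippocampus and 4.54 to 7.94 in cerebellum. The part of mature neurons in the values of Tubb3 and Stmn2 was not tested.

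**Figure D4:**
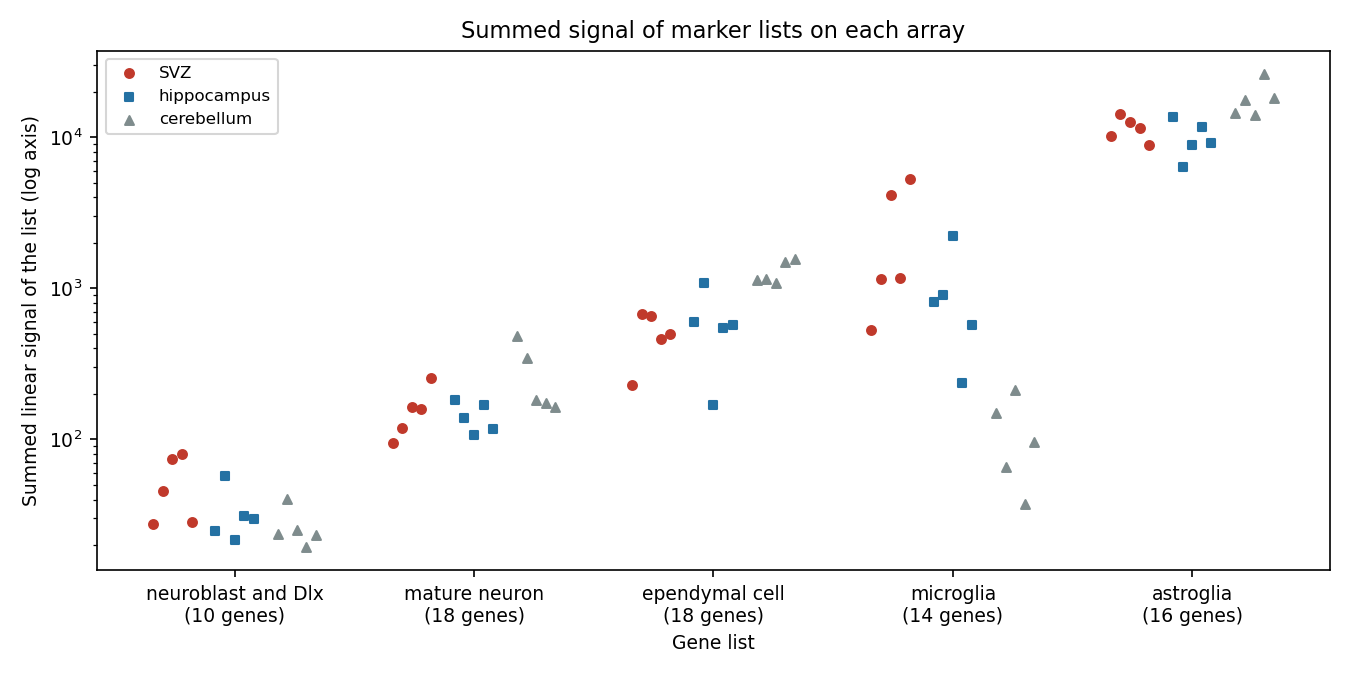
The summed linear RMA signal (vertical axis, log scale) of the neuroblast and Dlx genes, of mature neuron, ependymal and microglial markers and of astroglial genes (horizontal axis) is shown with 1 point per array and 5 arrays per region. The 10 neuroblast and Dlx genes sum to 27.6 to 79.7 in SVZ, 21.7 to 56.9 in hippocampus and 19.5 to 40.6 in cerebellum; sums include background and are to be read between arrays, not between lists.

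Other genes of these lineages were counted in the same way, beside the 5.51% and 4.78% of all genes called in SVZ and in hippocampus against cerebellum, and whether their counts differ from that of the 10 was not tested. Of 21 other transcription factor genes of the interneuron lineages, 1 rose and 1 fell in each comparison with cerebellum. Meis2, a homeodomain factor expressed in SVZ progenitors and olfactory bulb interneurons, stood at 1.71, 3.71, 4.60, 4.30 and 4.91 in SVZ, 1.13, 2.63, 0.95, 3.05 and 0.89 in hippocampus, and 0.87, 0.51, 0.82, 0.63 and 0.82 in cerebellum. Every SVZ array was above every cerebellar array, and the Meis2 difference was 3.12 ± 0.56 (adjusted p = 0.00483), or 1.67 with its probe sets averaged (adjusted p = 0.00164). In hippocampus against cerebellum Meis2 differed by 1.00 (adjusted p = 0.329), and in SVZ against hippocampus by 2.12 (95% interval 0.91 to 3.32, adjusted p = 0.430). Pbx3, a partner of Meis factors, fell by 1.29 for SVZ and by 1.49 for hippocampus (adjusted p = 0.0310 and 0.0155), both against cerebellum. With quantile normalization Pbx3 passed in neither (adjusted p = 0.291 and 0.140), and in SVZ it also missed on leaving out any of SVZ arrays 2 to 5 or cerebellar arrays 2 to 5 (adjusted p = 0.0596 to 0.0810), or with the 2 regions fitted alone (adjusted p = 0.0599). Nr2f2, a nuclear receptor of interneurons born in the caudal ganglionic eminence, rose by 2.09 in hippocampus against cerebellum (adjusted p = 0.0234). This call of Nr2f2 was lost without hippocampal array 3 or 5 or cerebellar array 2, 3 or 4 (adjusted p = 0.0547 to 0.0681). With its probe sets averaged Nr2f2 passed at a smaller value of 0.73 (adjusted p = 0.00536).

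Of 36 genes of the young neuron's cytoskeleton and migration, 3 rose and 2 fell in SVZ against cerebellum, and 2 rose and 2 fell in hippocampus against cerebellum. Stmn1, a microtubule regulator related to Stmn2 and common in dividing cells, was 7.90 to 8.85 in SVZ, 7.32 to 9.08 in hippocampus and 5.40 to 6.71 in cerebellum. The arrays of Stmn1 did not overlap those of cerebellum, and the differences were 2.07 ± 0.34 for SVZ and 1.69 ± 0.34 for hippocampus (adjusted p = 0.00249 and 0.0105). Dclk1, a doublecortin-like kinase gene related to Dcx and known also from radial glia, was named after its values were seen. Its signal averaged 7.12 ± 0.41 in SVZ, 7.04 ± 0.30 in hippocampus and 5.87 ± 0.15 in cerebellum (SD, n = 5 each). Dclk1 rose by 1.25 ± 0.20 for SVZ and by 1.17 ± 0.20 for hippocampus (adjusted p = 0.00211 and 0.00335). With a trended spread the hippocampal call was lost (adjusted p = 0.0571). Tuba1a, an alpha tubulin gene, fell by 1.32 in SVZ (adjusted p = 0.00477), which missed with quantile normalization (-0.67, adjusted p = 0.112), while its hippocampal signal fell by 1.54 (adjusted p = 0.00153), or by 0.92 with quantile normalization (adjusted p = 0.0277). Map2, a dendritic microtubule protein gene, fell by 1.53 in hippocampus (adjusted p = 0.00468), which missed with quantile normalization (adjusted p = 0.0718) and passed at -0.99 with its probe sets averaged (adjusted p = 0.0250).

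The SVZ calls of Sox4 and Map2 did not hold when most single arrays were left out. Sox4, a transcription factor of new neurons, rose by 1.51 ± 0.41 (adjusted p = 0.0455), and 12 of the 15 arrays, when left out in turn, ended that call (adjusted p = 0.0516 to 0.103). These were all cerebellar arrays, SVZ arrays 2 to 5 and hippocampal arrays 3 to 5. Median centring also ended it (adjusted p = 0.0639), while with its probe sets averaged Sox4 passed at a smaller value of 0.47 (adjusted p = 0.0269). Map2 fell by 1.03 (adjusted p = 0.0434), and leaving out any array but SVZ 3, hippocampus 1 or hippocampus 5 ended the call (adjusted p = 0.0512 to 0.106). So did quantile normalization, averaging its probe sets, a trended spread, leaving out dim genes, and fitting 2 regions alone (adjusted p = 0.0704 to 0.311). Sox11, which acts with Sox4 upstream of Dcx and Tubb3 in newborn neurons and is named here after its values were seen, was 1.02, 5.63, 5.75, 2.58 and 3.04 in SVZ, 2.90, 5.18, 3.00, 2.32 and 4.25 in hippocampus, and 0.88, 0.63, 0.75, 1.13 and 0.73 in cerebellum. All hippocampal arrays and 4 of 5 SVZ arrays of Sox11 lay above the cerebellar ones. Its differences were 2.78 for SVZ and 2.71 for hippocampus (adjusted p = 0.0596 and 0.0740), and both met the 4-fold criterion of the series. Both passed without SVZ array 1 (adjusted p = 0.0139 and 0.0333) and with array weights (adjusted p = 0.00518 and 0.0212). Both were also under 0.05 with dim genes left out (adjusted p = 0.0205 and 0.0263). Sox11 met that filter only through SVZ and hippocampal arrays, with 0 cerebellar arrays above 3, so that setting adds no support for a difference. The SVZ difference also passed with a trended spread (adjusted p = 0.0410), and that of hippocampus without SVZ array 3 (adjusted p = 0.0492) or with 2 regions alone (adjusted p = 0.00973). With the probe sets of Sox11 averaged, SVZ stood at 1.50, which passed (adjusted p = 0.0171), and hippocampus at 1.10, which did not (adjusted p = 0.0791).

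**Figure D5:**
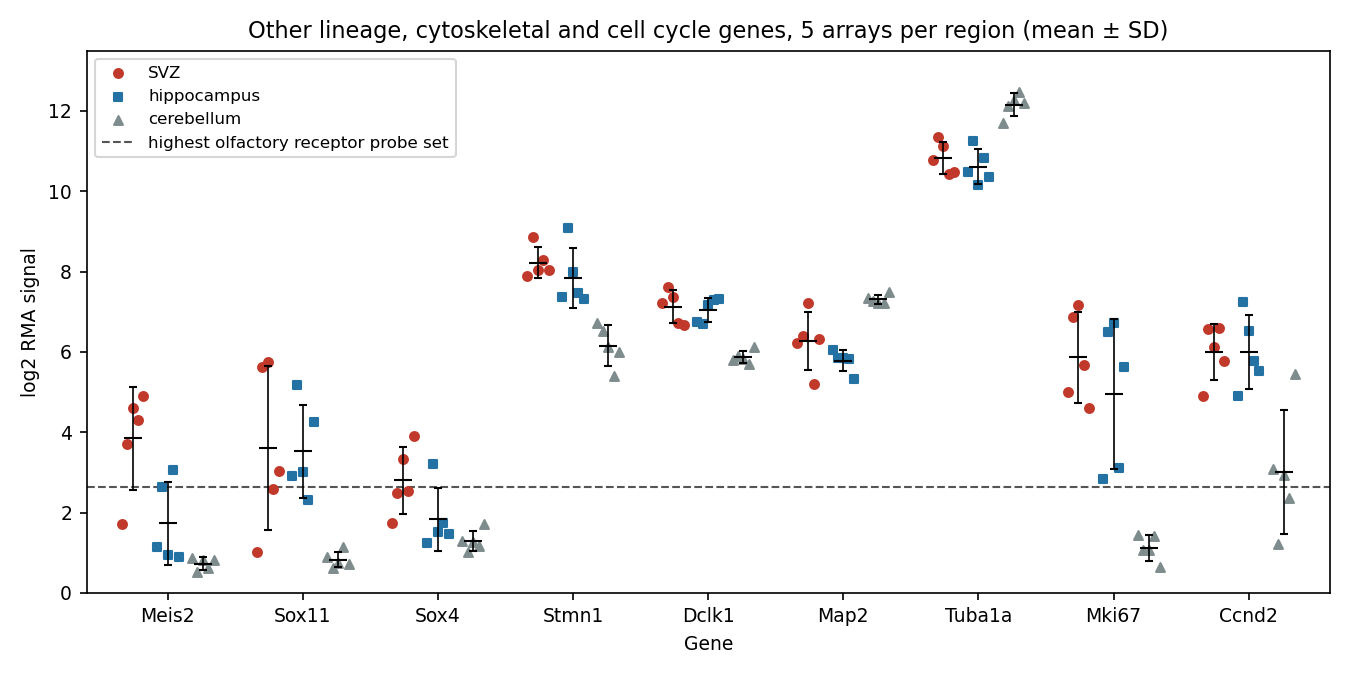
The log2 RMA signal (vertical axis) of 9 genes of the same lineage, of the cytoskeleton or of the cell cycle (horizontal axis) is shown with 1 point per array and mean ± SD for 5 arrays per region. The SVZ arrays of Meis2, Sox4, Stmn1, Dclk1 and Mki67 all lie above the cerebellar arrays, narrowly for Sox4 (1.73 against 1.71), and those of Tuba1a all lie below. The dashed line is the highest olfactory receptor probe set, at 2.63.

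Among 20 genes of transit amplifying and dividing cells, 3 rose in SVZ and 2 in hippocampus against cerebellum, and 0 fell in either. Mki67, which encodes the Ki-67 protein of cycling cells, was 4.60 to 7.18 in SVZ, 2.83 to 6.72 in hippocampus and 0.65 to 1.43 in cerebellum. The Mki67 arrays did not overlap, and the differences were 4.74 ± 0.75 for SVZ and 3.83 ± 0.75 for hippocampus (adjusted p = 0.00189 and 0.00850). The cerebellar values of Mki67, like those of Meis2 and Sox11, lay at background, so their differences depend on where background lies. Ccnd2, a cyclin gene of neural progenitors, rose by 2.98 for SVZ and by 2.99 for hippocampus (adjusted p = 0.0161 and 0.0175). With its probe sets averaged Ccnd2 stood at 1.56 and 1.91, which did not pass (adjusted p = 0.183 and 0.115), and without cerebellar array 4 the hippocampal value missed (adjusted p = 0.0518). Cenpe, the third gene that rose in SVZ and a mitotic kinesin gene, was named after its values were seen. Its signal was 0.96 to 1.95 in SVZ and 0.80 to 0.91 in cerebellum, near background, and its call (0.70, adjusted p = 0.0398) was lost on leaving out any of 9 arrays, namely SVZ arrays 2 to 5 and each cerebellar array (adjusted p = 0.0597 to 0.0966), and also with quantile normalization (adjusted p = 0.142), median centring (adjusted p = 0.0810) or 2 regions alone (adjusted p = 0.0562). Averaging the probe sets of Cenpe gave 0.37, which missed too (adjusted p = 0.0718).

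Of 13 genes of GABA synthesis, release and interneuron identity, 3 fell and 0 rose in each comparison with cerebellum. Npy, a neuropeptide gene of interneurons, averaged 1.92 ± 0.93 in SVZ, 1.27 ± 0.42 in hippocampus and 6.01 ± 0.41 in cerebellum (SD over 5 arrays each, log2 signal). Pvalb, the parvalbumin gene of fast interneurons and Purkinje cells, averaged 1.67 ± 0.57 in SVZ, 1.41 ± 0.60 in hippocampus and 5.78 ± 1.06 in cerebellum. The SVZ differences were -4.08 for Npy (adjusted p = 2.42e-05) and -4.11 for Pvalb (adjusted p = 0.000115). The SVZ signal exceeded the highest olfactory receptor probe set of its array on 2 of 5 arrays for Npy, 1 of 5 for Pvalb and 0 of 5 for Calb1, so the sizes of these differences depend on where background lies. Calb1, the calbindin gene of Purkinje cells and of dentate granule neurons, fell by 1.52 for SVZ and by 1.61 for hippocampus (adjusted p = 0.000653 and 0.000388), both against cerebellum. With its probe sets averaged Calb1 stood at -0.46 in SVZ, which passed (adjusted p = 0.0363), and at -0.33 in hippocampus, which missed (adjusted p = 0.132). Calb1 was also the 1 gene of 13 in the dentate granule neuron list that passed, and 0 of the 13 rose. Beside these falls, the summed signal of 14 cerebellar neuron genes, a list that includes Pvalb and Calb1, was 34.5 to 134 in SVZ, 42.4 to 103 in hippocampus and 333 to 561 in cerebellum. Of the 14, 5 fell in SVZ and 3 in hippocampus against cerebellum, and 0 rose. On cerebellar arrays 3 to 4 of the 14 genes were above 3. The sum was highest on cerebellar array 4, where Pvalb was lowest for cerebellum, at 4.17. The part of cerebellar neurons in the differences of Npy, Pvalb and Calb1 was not tested.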

How the data were processed

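Values of 15 Affymetrix mouse arrays, 5 per region, were used, with regions taken from the sample titles. The deposited values are the authors' log2 signals, normalized with RMA per the submitters' processing notes. The notes give no log base, and the values were read as log2 because the highest value on an array was 14.97 to 15.08. No RMA version or scan batch was given in the sources used here. Per the labels' protocols, RNA was amplified from pooled sorted cells before labelling. No detection calls were used here, so background limits what can be said of dim genes, and 5 arrays per region limit the precision of all.

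Of 45101 probe sets, 34958 had 1 gene symbol in the platform annotation of the array, 932 had several and 9211 were not listed. Symbols of 34741 were updated through Entrez identifiers, and 204 were not matched. The 64 control probe sets were left out. Each of 18193 genes was represented by the probe set with the highest mean, and a gene without such a probe set is not analysed here.

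Region was fitted with limma 3.58.1 over all 15 arrays, with Benjamini-Hochberg adjustment over all genes and calls at an adjusted p under 0.05. The fit was tested on simulated data in which only genes with a mean signal above 3 were changed. All members had lower means, so that test does not show how well differences in them would be found. R was version 4.3.3 and its package data.table version 1.17.8. Tables and figures used Python 3.11.15, pandas 2.3.3 and matplotlib 3.10.9. A log2 signal of 3 was used as a guide to detection. The members and lists were chosen with earlier results of these data known. Named genes were all members, and from each related list the 2 largest called differences each way. A further rule named genes most like Dcx and Dlx2 where those exceeded a signal of 3, which named 0 genes. The alternatives were quantile normalization, median centring, leaving out genes above 3 on fewer than 5 arrays, averaging the probe sets of each gene, a trended and robust spread, array weights, only the 2 regions compared, the replicate number as a block, the threshold of the series design, and leaving out each array in turn. Fitting every probe set as a feature was added after seeing the data.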

Additional observations from a re-analysis of the deposited data

Results flagged for a closer look

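In 5 of the groups of 5 arrays, the highest array stood far from the other 4 by Dixon's criterion. Hippocampal array 4 had a Gad1 signal of 3.55, where the next array had 1.14. Hippocampal array 1 had a Dlx6 signal of 1.50, where the next had 1.13. Among the other named genes, Pbx3 was 2.69 on SVZ array 1 (next 1.31), Sox4 was 3.20 on hippocampal array 2 (next 1.75) and Pvalb was 2.66 on SVZ array 5 (next 1.63). These were 2 of 30 groups of member values and 3 of 54 groups of the other named genes, where chance flags about 1 in 20.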

How the results depend on the processing

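Of 693 alternative values for the 30 member differences, 652 kept direction and side of the threshold, 2 newly passed and 39 changed sign. In SVZ against cerebellum array weights called 1 member and leaving out 1 array called 0 to 1. All genes called there numbered 1002, against 585 with quantile normalization (221 higher and 364 lower), 1561 with array weights, 584 by the threshold of the series design, and 612 to 1094 on leaving out 1 array, the lowest without cerebellar array 5. In hippocampus against cerebellum they numbered 869, against 469 with quantile normalization (155 higher and 314 lower), 522 by the series threshold and 545 to 1162 on leaving out 1 array, the lowest without cerebellar arrays 2, 4 or 5. In SVZ against hippocampus the 4 genes became 0 without dim genes, with the mean of probe sets, with a trended spread or with 2 regions alone, 65 by the series threshold and 1 to 11 on leaving out 1 array. Median centring moved the median difference of all genes to -0.04 from 0.07 in both comparisons with cerebellum. Signs changed with quantile normalization for Gad1 (-0.11) and Igfbpl1 (-0.026) in SVZ against cerebellum and for Dlx2 (-0.044) and Dlx6 (-0.009) in hippocampus against cerebellum. They changed with median centring for Gad1 (-0.09) and Igfbpl1 (-0.034) in SVZ, and for Dlx2 (-0.022) and Stmn2 (-0.01) in hippocampus. With the mean of probe sets they changed for Gad1 in SVZ (-0.20) and hippocampus (-0.004), and for Stmn2 in hippocampus (-0.065). On leaving out 1 array, SVZ minus cerebellum differences spanned -0.71 to 0.30 for Tubb3, -0.013 to 0.23 for Dlx2, -0.041 to 0.057 for Gad1, -0.27 to 0.05 for Stmn2 and -0.033 to 0.14 for Igfbpl1. Hippocampus minus cerebellum spanned -0.72 to 0.29 for Tubb3, -0.027 to 0.16 for Dlx2, -0.10 to 0.065 for Dlx5, -0.006 to 0.22 for Dlx6, -0.076 to 0.62 for Gad1 and -0.076 to 0.29 for Stmn2. SVZ minus hippocampus spanned -0.35 to 0.37 for Tubb3, -0.046 to 0.24 for Dlx1, -0.10 to 0.16 for Dlx2 and -0.61 to 0.09 for Gad1. The cause of these changes was not tested. The labels do not say whether arrays with the same replicate number shared a batch. Deviations of same-numbered arrays from their region means correlated at 0.03 to 0.11 between SVZ and cerebellum and at -0.12 to 0.14 between hippocampus and cerebellum. With the replicate number as a block 0 members were called, and 1011, 814 and 4 genes in all. Under the block the SVZ differences of Map2, Sox4, Pbx3 and Cenpe missed (adjusted p = 0.0627, 0.0634, 0.0675 and 0.0627). By these deviations from the region means, each SVZ array correlated best with its own number in cerebellum. So did hippocampal arrays 1, 4 and 5 with cerebellum, and SVZ arrays 1 and 2 with hippocampus, while the rest did not. Shared structure by replicate number is therefore possible, and the main fit did not model it. Signals near background limit every member, Cd24a included in hippocampus and cerebellum.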
